A study of Mus musculus with 8 samples.

Results

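The Notch family genes described here are the receptors Notch1, Notch2 and Notch3, the ligands Jag1, Jag2, Dll1 and Dll4, and the targets Hes1, Hey1 and Nrarp. They were picked by symbol for their place in the pathway, with earlier results of these data known, and make up 10 of the 25466 genes in the deposited count table. All 10 had enough counts to be tested. RNA was sequenced from medullary thymic epithelial cells (mTECs), the stromal cells of the thymic medulla that present tissue-restricted self-antigens to developing T cells. The donors were wild-type mice of the BL6N6 strain, 4 to 6 weeks old, and received no treatment. Cells were sorted as CD45neg EpCAMpos CDR1neg and divided by surface Tspan8, a tetraspanin that serves as an exemplary tissue-restricted antigen, and by surface MHCII, which is low on immature and on late mTECs and high on mature mTECs. The resulting subsets were Tspan8negMHCIIlo, Tspan8negMHCIIhi, Tspan8posMHCIIhi and Tspan8posMHCIIlo, with 2 libraries each, called biological replicates in the labels. The number of mice behind a library is not given in the sources used here, and a subset is defined by a gate rather than by a single cell type.

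Notch receptors are transmembrane proteins that bind Delta-like and Jagged ligands on a neighbouring cell. Binding lets Adam proteases and then gamma-secretase cut the receptor, and the released intracellular part enters the nucleus, joins Rbpj and Maml cofactors and switches on targets such as the Hes and Hey repressors and Nrarp, which dampens the signal. In the thymus the pathway is best known for committing progenitors to the T cell lineage, with Dll4 on the cortical epithelium as the ligand, and Notch activity within thymic epithelium has been linked to the early mTEC lineage.

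The 8 libraries held between 1941518 and 7783841 counts, a 4.01-fold range, and the 10 genes had from 18 to 2713 counts in a library. Levels are given in CPM, the counts of a gene scaled to a common library total, with TMM normalization, and a gene is called different between subsets where the adjusted p is below 0.01 and the change is 1 or more on the log2 scale in either direction, from edgeR's quasi-likelihood test over 17006 genes. The sort was visible in the RNA. Tspan8 was higher in Tspan8pos mTECs by 5.24 (SE 0.36) in the MHCIIlo and 5.56 (SE 0.36) in the MHCIIhi subsets on the log2 scale, and H2-Ab1, an MHCII gene, was higher in MHCIIhi mTECs by 1.42 in Tspan8neg and 2.33 in Tspan8pos. H2-Ab1 also changed with Tspan8, by -1.91 (SE 0.13, edgeR adjusted p = 9.18e-07) among MHCIIlo and by -0.998 (SE 0.12, edgeR adjusted p = 8.96e-05) among MHCIIhi mTECs. The Tspan8 comparisons were therefore not matched for MHCII RNA. The 9 mTEC markers summed to between 6401 and 11862 CPM in every library. All 13 thymocyte markers, summed, came to 579 and 1656 CPM in replicates 1 and 2 of Tspan8negMHCIIlo and to between 96.0 and 270.1 CPM in the other 6 libraries. The 2 Tspan8negMHCIIlo libraries therefore differ from each other, and results that rest on either are given with and without it. In sorted bulk RNA, fewer cells of a type and less RNA per cell cannot be told apart.

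The sequence upstream of the start is shown for Nrarp, Notch2 and Notch3, which were higher in Tspan8posMHCIIhi than in Tspan8negMHCIIhi mTECs, and for Dll4, which was highest in Tspan8negMHCIIhi. Each is the 250 bases before the RefSeq start on GRCm38.p6, read 5′ to 3′ on the gene's strand, and capitals mark the letters CACGTG or CACGCG on either strand, hexamers that Hes and Hey proteins are known to bind. The windows are chr2:25180508-25180757 (+) for Nrarp, chr3:98013288-98013537 (+) for Notch2, chr17:32166891-32167140 (-) for Notch3 and chr2:119325534-119325783 (+) for Dll4.
Nrarp: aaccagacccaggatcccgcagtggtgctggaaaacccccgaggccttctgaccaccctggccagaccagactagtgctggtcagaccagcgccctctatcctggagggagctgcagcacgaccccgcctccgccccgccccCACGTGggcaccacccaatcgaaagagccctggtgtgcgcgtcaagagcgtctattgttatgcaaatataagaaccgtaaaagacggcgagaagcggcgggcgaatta
Notch2: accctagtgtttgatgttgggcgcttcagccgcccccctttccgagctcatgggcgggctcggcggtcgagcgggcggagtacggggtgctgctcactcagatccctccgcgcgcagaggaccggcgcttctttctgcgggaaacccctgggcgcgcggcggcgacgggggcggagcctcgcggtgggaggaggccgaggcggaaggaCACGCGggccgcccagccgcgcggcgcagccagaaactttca
Notch3: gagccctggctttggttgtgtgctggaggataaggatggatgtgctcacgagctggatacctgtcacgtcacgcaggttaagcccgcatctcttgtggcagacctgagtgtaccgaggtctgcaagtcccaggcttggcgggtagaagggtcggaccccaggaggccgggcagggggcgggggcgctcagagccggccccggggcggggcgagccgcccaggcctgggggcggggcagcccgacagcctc
Dll4: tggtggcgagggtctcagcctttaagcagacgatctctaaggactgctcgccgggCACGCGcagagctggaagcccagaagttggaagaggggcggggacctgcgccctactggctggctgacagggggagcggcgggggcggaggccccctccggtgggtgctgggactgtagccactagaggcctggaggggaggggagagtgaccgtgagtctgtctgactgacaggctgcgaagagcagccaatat

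Windows were held for 8 of the 10 genes, 9 windows in all since Dll1 has 2 starts. CACGTG stood in the Nrarp window alone, with its first base 108 bases before the start, against 6.02% of the 32851 windows of all genes. CACGCG stood in the windows of Notch2, Dll4, Jag1 and one of those of Dll1, against 7.62% of all windows. The letters TGGGAA, the core bound by Rbpj, were in none of the 9 windows and in 21.6% of all windows on either strand. G or C made up 56.0% to 87.2% of the letters of the 9 windows, and the shares over all windows were not matched for this content. A match describes the letters of a window and shows no bound site.

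The 10 genes did not move as a block across the mTEC subsets. Notch2, Notch3, Jag1, Hes1 and Nrarp were higher in Tspan8posMHCIIhi than in Tspan8negMHCIIhi mTECs, by 3.30-fold for Notch2 and up to 7.0-fold for Nrarp. Jag2, Dll1 and Hey1 were highest in Tspan8negMHCIIlo, at 3.79-, 3.71- and 3.20-fold above Tspan8posMHCIIlo. Dll4 was highest in Tspan8negMHCIIhi and rose with MHCII in both Tspan8 arms, by 2.57-fold in Tspan8neg and 3.36-fold in Tspan8pos mTECs. Notch1 moved least, with subset means between 151 and 317 CPM.

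**Figure D1:**
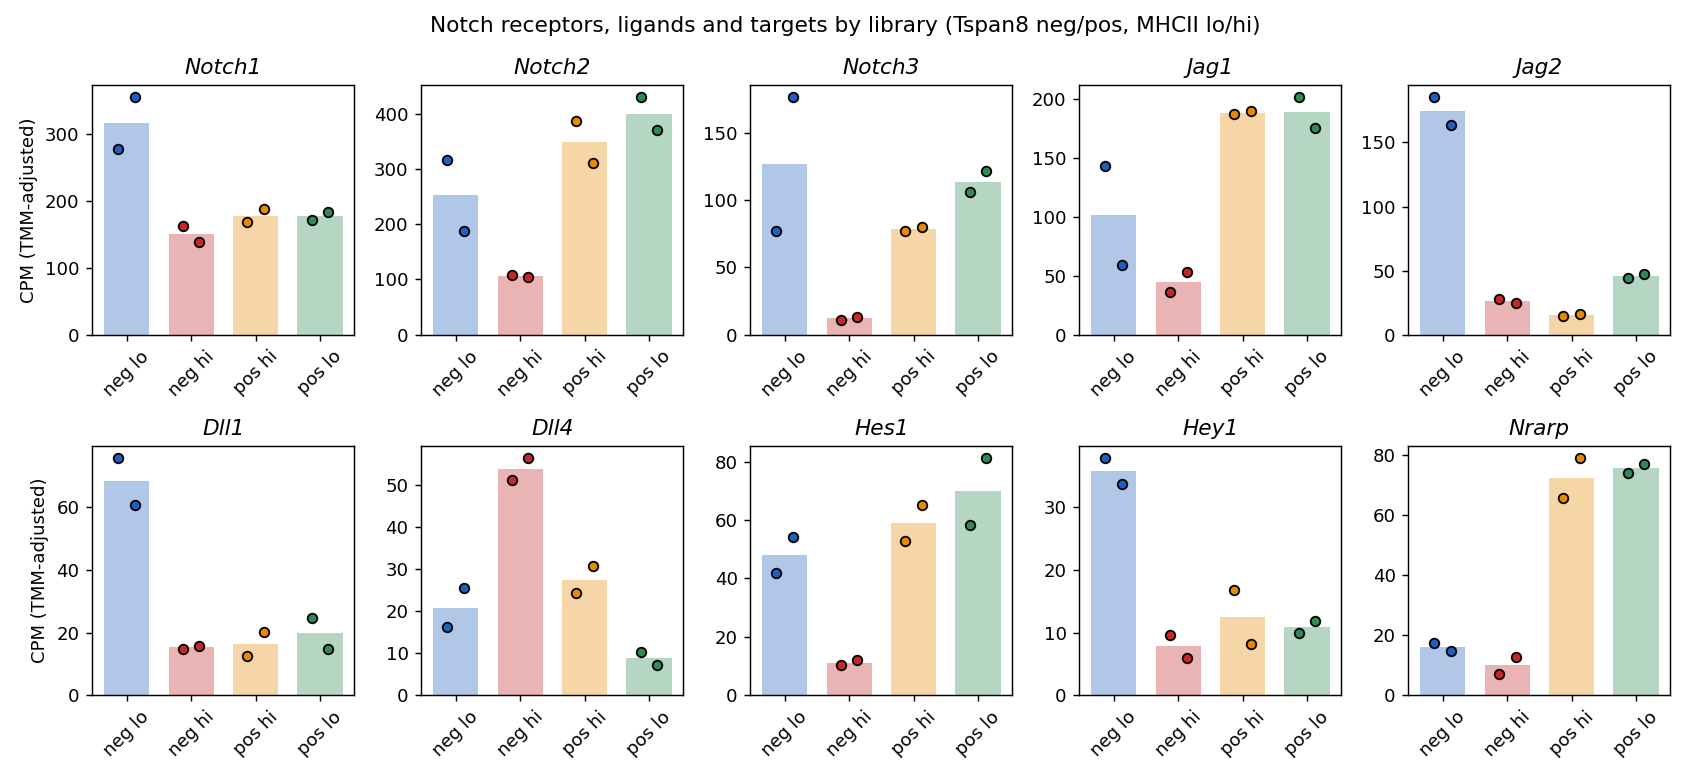
TMM-normalized CPM of the 10 Notch family genes in each library (points) with the subset mean (bars), for Tspan8neg or Tspan8pos (neg, pos) and MHCIIlo or MHCIIhi (lo, hi) mTECs, 2 libraries a subset. Nrarp lies between 65.9 and 79.2 CPM in the 4 Tspan8pos libraries and between 7.07 and 17.4 CPM in the 4 Tspan8neg libraries, and the replicates of Tspan8negMHCIIlo lie far apart for Notch3 and Jag1.

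Notch1 (ENSMUSG00000026923.15, chromosome 2 from 26457903 to 26516663, minus strand) encodes the receptor that T cell progenitors need. It stood at 278 and 356 CPM in Tspan8negMHCIIlo, 163 and 139 in Tspan8negMHCIIhi, 169 and 188 in Tspan8posMHCIIhi and 172 and 184 in Tspan8posMHCIIlo. Both Tspan8negMHCIIlo libraries were above the other 6, which lay close together. MHCIIhi differed from MHCIIlo within Tspan8neg mTECs by -1.07 (SE 0.16, edgeR adjusted p = 0.00028) on the log2 scale, a call that sits at the fold limit and is lost without replicate 2 of Tspan8negMHCIIlo, at -0.89, and without replicate 2 of Tspan8negMHCIIhi, at -0.87. Within the MHCIIlo subsets the difference of Tspan8pos from Tspan8neg was -0.83 (SE 0.16, edgeR adjusted p = 0.00159), inside the fold limit, and it reached -1.0 and was called without replicate 1 of Tspan8negMHCIIlo. Between the MHCIIhi subsets it was 0.24 (SE 0.16, edgeR adjusted p = 0.248).

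Notch2 (ENSMUSG00000027878.11, chromosome 3 from 98013527 to 98150361, plus strand) encodes a receptor with broad use in epithelia. Its levels were 317 and 189 CPM in Tspan8negMHCIIlo, 107 and 105 in Tspan8negMHCIIhi, 388 and 311 in Tspan8posMHCIIhi and 431 and 370 in Tspan8posMHCIIlo. The 2 Tspan8negMHCIIhi libraries were the lowest of the 8, while Tspan8negMHCIIlo overlapped Tspan8posMHCIIhi and that subset overlapped Tspan8posMHCIIlo. Among MHCIIhi mTECs, Tspan8pos exceeded Tspan8neg by 1.72 (SE 0.22, edgeR adjusted p = 0.000122) on the log2 scale. Among Tspan8neg mTECs, MHCIIhi fell by 1.25 on the log2 scale (SE 0.22, edgeR adjusted p = 0.000951). That second call was lost without replicate 1 of Tspan8negMHCIIlo, at -0.84, and without replicate 1 or replicate 2 of Tspan8negMHCIIhi, at -1.18 and -1.15. Without replicate 1 of Tspan8negMHCIIlo, the Tspan8 difference among MHCIIlo mTECs, 0.66 (SE 0.22, edgeR adjusted p = 0.0298), became 1.07 and was called.

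Notch3 (ENSMUSG00000038146.7, chromosome 17 from 32120820 to 32166852, minus strand) encodes a receptor of vascular smooth muscle that thymocytes express as well. It had 77.0 and 177 CPM in Tspan8negMHCIIlo, 11 and 13.3 in Tspan8negMHCIIhi, 76.9 and 80.3 in Tspan8posMHCIIhi and 106 and 121 in Tspan8posMHCIIlo. Tspan8negMHCIIhi was the only subset under 20 CPM, since its 2 libraries lay apart from the other 6, and replicate 1 of Tspan8negMHCIIlo stood beside the Tspan8posMHCIIhi libraries while replicate 2 was the highest of all. In the fit of all 8 libraries it had the largest difference of the 10 genes in the 4 comparisons of subsets that differ in 1 marker. MHCIIhi was lower than MHCIIlo in Tspan8neg mTECs by 10.3-fold (log2 fold change -3.37, SE 0.34, edgeR adjusted p = 2.24e-05). With single libraries left out this value ran from -3.84 to -2.65, beside -2.83 to -2.57 for Jag2. These ranges overlap, so the rank of Notch3 was not secure. Tspan8pos exceeded Tspan8neg by 2.67 (SE 0.33, edgeR adjusted p = 9.86e-05) among MHCIIhi mTECs. Among MHCIIlo mTECs the difference was -0.15 (SE 0.29, edgeR adjusted p = 0.708), and it was 0.58 without replicate 2 of Tspan8negMHCIIlo and -0.63 without replicate 1.

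Jag1 (ENSMUSG00000027276.7, chromosome 2 from 137081456 to 137116644, minus strand) encodes a Jagged ligand of many epithelia and of endothelium. It was at 144 and 59.2 CPM in Tspan8negMHCIIlo, 36.0 and 53.4 in Tspan8negMHCIIhi, 188 and 190.0 in Tspan8posMHCIIhi and 202 and 176 in Tspan8posMHCIIlo. All 4 Tspan8pos libraries were above all 4 Tspan8neg libraries, and the 2 Tspan8pos subsets could not be set in order. Among MHCIIhi mTECs, Tspan8pos exceeded Tspan8neg by 2.06 (SE 0.33, edgeR adjusted p = 0.000541), a call lost without replicate 1 of Tspan8negMHCIIhi, at 1.74. Among MHCIIlo mTECs the difference was 0.90 (SE 0.32, edgeR adjusted p = 0.0428), and it was 1.66 and called without replicate 1 of Tspan8negMHCIIlo and 0.39 without replicate 2. The difference of MHCIIhi from MHCIIlo in Tspan8neg mTECs, -1.16 (SE 0.33, edgeR adjusted p = 0.0148), likewise reached -1.67 and was called without replicate 2 of Tspan8negMHCIIlo, and was -0.39 without replicate 1.

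Jag2 (ENSMUSG00000002799.5, chromosome 12 from 112907819 to 112929776, minus strand) encodes the second Jagged ligand. It stood at 186 and 164 CPM in Tspan8negMHCIIlo, 27.7 and 25.0 in Tspan8negMHCIIhi, 14.3 and 16.1 in Tspan8posMHCIIhi and 44.5 and 47.1 in Tspan8posMHCIIlo. No 2 subsets overlapped, and the order ran from Tspan8posMHCIIhi at the bottom over Tspan8negMHCIIhi and Tspan8posMHCIIlo to Tspan8negMHCIIlo at the top. MHCIIhi was lower than MHCIIlo by 6.65-fold in Tspan8neg mTECs (log2 fold change -2.73, SE 0.15, edgeR adjusted p = 7.2e-07) and by 3.03-fold in Tspan8pos mTECs (log2 fold change -1.60, SE 0.17, edgeR adjusted p = 8.66e-05). Tspan8pos was lower than Tspan8neg by 1.92 on the log2 scale among MHCIIlo mTECs (log2 fold change -1.92, SE 0.15, edgeR adjusted p = 2.56e-06), whereas among MHCIIhi mTECs the value of -0.79 (SE 0.16, edgeR adjusted p = 0.00323) stayed inside the fold limit. These 3 calls held without any one library.

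Dll1 (ENSMUSG00000014773.13, chromosome 17 from 15367354 to 15376872, minus strand) encodes a Delta-like ligand. Its levels were 75.8 and 60.8 CPM in Tspan8negMHCIIlo, 14.8 and 15.9 in Tspan8negMHCIIhi, 12.5 and 20.1 in Tspan8posMHCIIhi and 24.7 and 14.9 in Tspan8posMHCIIlo. Tspan8negMHCIIlo stood alone at the top, and the other 3 subsets overlapped one another. Against that subset Dll1 fell by 2.15 on the log2 scale in Tspan8negMHCIIhi (SE 0.26, edgeR adjusted p = 9.21e-05) and by 1.89 in Tspan8posMHCIIlo (SE 0.28, edgeR adjusted p = 0.000269). The latter call was lost without replicate 2 of Tspan8posMHCIIlo, at -1.46, which left that subset with its shallowest library and 45 Dll1 counts.

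Dll4 (ENSMUSG00000027314.6, chromosome 2 from 119325784 to 119335962, plus strand) encodes the Delta-like ligand by which the thymic cortex instructs T cell fate. It had 16.3 and 25.5 CPM in Tspan8negMHCIIlo, 51.4 and 56.7 in Tspan8negMHCIIhi, 24.3 and 30.9 in Tspan8posMHCIIhi and 10.4 and 7.23 in Tspan8posMHCIIlo. The Tspan8negMHCIIhi libraries were the highest and the Tspan8posMHCIIlo libraries the lowest of the 8, with the remaining subsets overlapping between them. MHCIIhi exceeded MHCIIlo by 1.36 (SE 0.24, edgeR adjusted p = 0.000871) in Tspan8neg and by 1.75 (SE 0.28, edgeR adjusted p = 0.00151) in Tspan8pos mTECs, where the call was lost without replicate 2 of Tspan8posMHCIIhi or of Tspan8posMHCIIlo, at 1.56 and 1.40. Tspan8pos fell below Tspan8neg by 1.36 on the log2 scale among MHCIIlo mTECs (SE 0.29, edgeR adjusted p = 0.00321), and this call was lost without replicate 2 of Tspan8negMHCIIlo, at -1.01, without replicate 2 of Tspan8posMHCIIlo, at -1.0, and in a fit of the 4 MHCIIlo libraries alone, at -1.30. Among MHCIIhi mTECs the difference of -0.97 (SE 0.23, edgeR adjusted p = 0.00596) was just inside the fold limit and was called with DESeq2, at -1.03. The summed cTEC markers came to 263 and 292 CPM in the Tspan8negMHCIIhi libraries that were highest for Dll4, the lowest of the 8. They came to 1126 and 881 CPM in the Tspan8negMHCIIlo libraries. The 6 markers did not move together. In MHCIIhi against MHCIIlo Tspan8neg mTECs, Enpep was called higher at 1.33, the direction of Dll4. Ctsl and Cxcl12 were called lower, at -2.47 and -2.92, and 3 were not called. The part of cTECs in the Dll4 values was not tested.

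Hes1 (ENSMUSG00000022528.7, chromosome 16 from 30064384 to 30067796, plus strand) encodes a repressor that is a direct Notch target in many tissues. It was at 41.9 and 54.2 CPM in Tspan8negMHCIIlo, 10.4 and 12 in Tspan8negMHCIIhi, 52.8 and 65.0 in Tspan8posMHCIIhi and 58.3 and 81.4 in Tspan8posMHCIIlo. As for Notch3, the 2 Tspan8negMHCIIhi libraries were the only low ones, and each of the other subsets overlapped its neighbour in the order. Hes1 fell by 2.09 on the log2 scale from Tspan8negMHCIIlo to Tspan8negMHCIIhi (SE 0.23, edgeR adjusted p = 4.09e-05) and was 5.19-fold higher in Tspan8posMHCIIhi than in Tspan8negMHCIIhi mTECs (log2 fold change 2.38, SE 0.22, edgeR adjusted p = 1.21e-05). Both calls held without any one library.

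Hey1 (ENSMUSG00000040289.8, chromosome 3 from 8663359 to 8667256, minus strand) encodes a related repressor known from vessels and heart. It had 37.9 and 33.7 CPM in Tspan8negMHCIIlo, 9.57 and 6.02 in Tspan8negMHCIIhi, 16.7 and 8.13 in Tspan8posMHCIIhi and 9.89 and 11.9 in Tspan8posMHCIIlo. Only Tspan8negMHCIIlo stood apart. Hey1 fell by 2.23 on the log2 scale in Tspan8negMHCIIhi (SE 0.34, edgeR adjusted p = 0.000379) and by 1.68 in Tspan8posMHCIIlo (SE 0.34, edgeR adjusted p = 0.00251), both against Tspan8negMHCIIlo. The former call was lost without replicate 2 of Tspan8negMHCIIhi, at -1.81, and the latter without replicate 1 or 2 of Tspan8posMHCIIlo, at -1.60 and -1.85.

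Nrarp (ENSMUSG00000078202.3, chromosome 2 from 25180758 to 25183339, plus strand) encodes a small ankyrin repeat protein that is induced by Notch and limits it. Its levels were 17.4 and 14.9 CPM in Tspan8negMHCIIlo, 7.07 and 12.9 in Tspan8negMHCIIhi, 65.9 and 79.2 in Tspan8posMHCIIhi and 74.2 and 77.3 in Tspan8posMHCIIlo. The genes Nrarp and Jag1 were those of the 10 with every Tspan8pos library above every Tspan8neg library, and for Nrarp the gap was the wider. Tspan8pos exceeded Tspan8neg by 2.24 (SE 0.24, edgeR adjusted p = 2.91e-05) among MHCIIlo and by 2.81 (SE 0.24, edgeR adjusted p = 5.69e-06) among MHCIIhi mTECs, and both calls held without any one library. The MHCII differences of Nrarp were -0.63 (SE 0.26, edgeR adjusted p = 0.0747) in Tspan8neg and -0.07 (SE 0.21, edgeR adjusted p = 0.878) in Tspan8pos mTECs.

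To compare levels between genes, CPM were divided by the length in kilobases of the longest coding transcript. On this length-scaled level Notch1 led the 3 receptors in Tspan8negMHCIIhi, with 59.7% and 55.7% of their sum, and Notch2 led in the 4 Tspan8pos libraries, with 49.9% to 57.4%. In Tspan8negMHCIIlo the replicates differed, with Notch1 at 42.4% and Notch2 at 43.7% in replicate 1 and at 48.4% and 23.2% in replicate 2. The length-scaled share of Notch3 was 4.8% and 6.3% in Tspan8negMHCIIhi and between 13.9% and 28.4% elsewhere.

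The leading ligand by length-scaled level was Jag2 in Tspan8negMHCIIlo, with 41.6% and 48.3% of the 4 ligands summed. It was Dll4 in Tspan8negMHCIIhi, with 46.2% and 44.5%, and Jag1 in the Tspan8pos libraries, with 66.2% to 72.3%. The length-scaled ratio of Jag1 to Jag2 was 0.70 and 0.33 in Tspan8negMHCIIlo, 1.18 and 1.95 in Tspan8negMHCIIhi, 3.40 to 4.13 in Tspan8posMHCIIlo and 10.8 to 11.9 in Tspan8posMHCIIhi. No library of one subset reached into the range of another on this ratio. The ratio of Dll4 to Dll1 was 3.32 and 3.41 in Tspan8negMHCIIhi, 1.47 and 1.85 in Tspan8posMHCIIhi and between 0.205 and 0.465 in the MHCIIlo libraries, so that both MHCIIhi subsets lay above both MHCIIlo subsets.

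Among the 3 targets, Hes1 had the largest length-scaled share in every library, from 51.4% to 65.3%. Nrarp held 33.2% to 39.6% in Tspan8pos and 10.2% to 31.9% in Tspan8neg libraries, and Hey1 4.3% to 10.1% and 15.8% to 30.7%. The summed target level per kilobase was 13.8 and 15.7 in Tspan8negMHCIIhi, 50.9 and 56.6 in Tspan8negMHCIIlo and 68.4 to 90.2 in the Tspan8pos libraries. The summed receptor level per kilobase was likewise lowest in Tspan8negMHCIIhi, at 28.8 and 26.3, against 59.4 to 77.5 elsewhere.

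**Figure D2:**
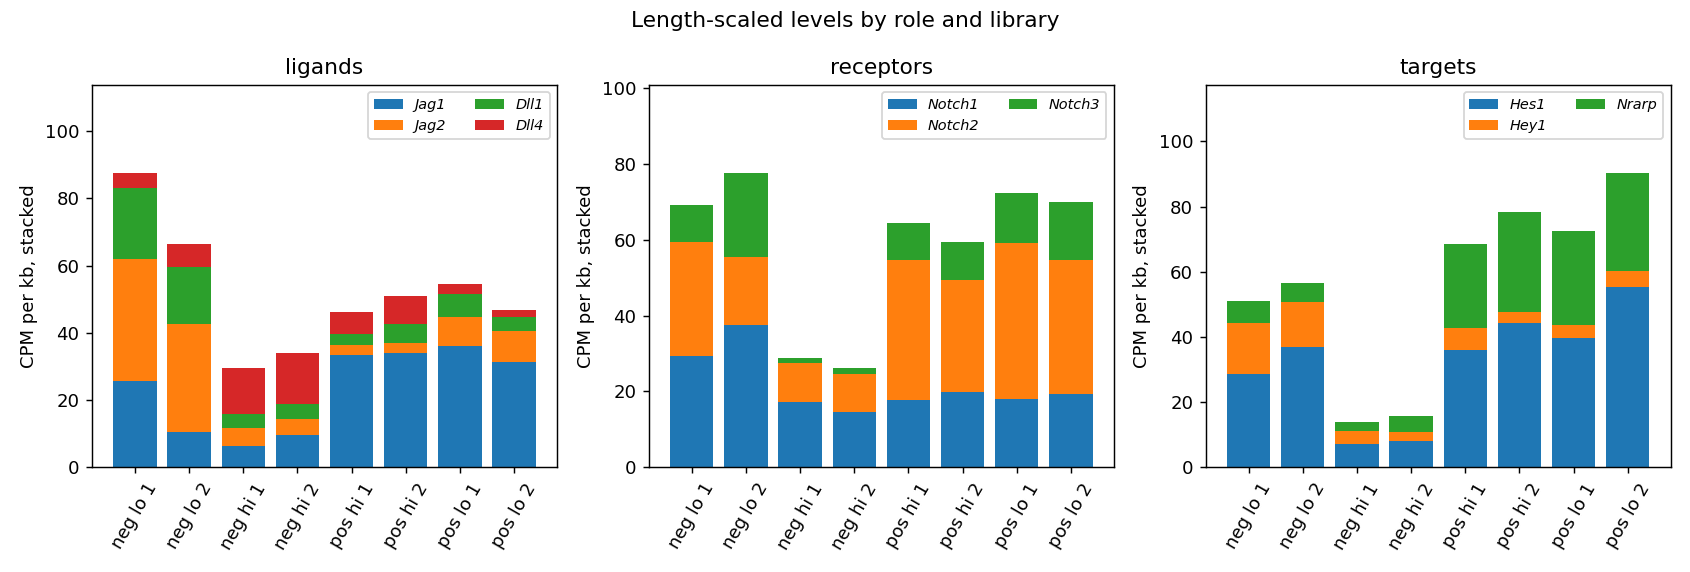
Length-scaled levels (CPM per kilobase of the longest coding transcript) stacked by gene for the ligands, receptors and targets in each of the 8 libraries, labelled by Tspan8 (neg, pos), MHCII (lo, hi) and replicate. The ligand stack is led by Jag2 in Tspan8negMHCIIlo, by Dll4 in Tspan8negMHCIIhi and by Jag1 in the Tspan8pos libraries, and the receptor and target stacks are lowest in Tspan8negMHCIIhi.

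Counted over the 10 genes, Tspan8pos against Tspan8neg MHCIIlo mTECs gave 1 gene called higher, Nrarp, where 12.1% of all tested genes were, and 4 called lower, Jag2, Dll1, Dll4 and Hey1, where 9.34% were. The median log2 fold change of the 10 genes was -0.49, beside -0.03 over all genes tested. Without replicate 1 of Tspan8negMHCIIlo 8 genes were called, and without replicate 2 of Tspan8posMHCIIlo 2 were. Markers of other cell types were called lower with them. They included 7 of 12 thymocyte markers, 3 of 6 cTEC markers (Prss16, Ctsl and Cxcl12) and 1 of 6 endothelium markers, Pecam1. Of the 6 fibroblast and pericyte markers, Acta2 at -3.0 and Rgs5 at -2.69 were called lower. The dendritic cell and macrophage list went both ways, with Itgax called lower at -4.75 and Itgam higher at 3.81. So did the B cell list, with Cd79a called lower at -2.90 and Cd79b higher at 1.35. Among the mTEC markers Krt14, Aire and H2-Ab1 were called lower, at -1.85, -2.91 and -1.91. Epcam, Krt8, Cldn3 and Cldn4 were called higher, at 1.20, 1.06, 2.08 and 2.30. The part of any of these cells in the 4 lower calls was not tested.

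Among MHCIIhi mTECs, Tspan8 gave 5 genes called higher, where 11% of all tested genes were called higher and 7.45% lower. The calls were 2 receptors, Notch2 and Notch3, the ligand Jag1 and the targets Hes1 and Nrarp. With TMM factors and the default filter, none of the 10 was called lower by edgeR, with 2 lower at an unadjusted p under 0.05, Jag2 and Dll4. Dll4 was called lower by DESeq2, by edgeR with DESeq2 size factors and by edgeR with a filter of 10 counts in 4 libraries, at -1.03, -1.03 and -1.01. The median log2 fold change was 1.21, beside -0.03 over all genes tested. Of the dendritic cell and macrophage markers, Itgam was called higher, at 3.06, and Adgre1 and Flt3 lower, at -2.57 and -2.52. Thy1 of the thymocyte list and Pdgfrb and Col1a1 of the fibroblast and pericyte list were called lower. Among the mTEC markers Krt5, Cldn3 and Cldn4 were called higher and Aire and Cd80 lower. The part of other cell types in the 5 calls was not tested.

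MHCII within Tspan8neg mTECs touched the most genes of the family. It gave 1 gene called higher, Dll4, where 13.1% of all tested genes were, and 7 called lower, where 9.67% were. The 7 were the 3 receptors, the ligands Jag2 and Dll1 and the targets Hes1 and Hey1, and 5 of the 8 calls remained in number without replicate 2 of Tspan8negMHCIIhi. The median log2 fold change was -1.67, beside -0.04 over all genes tested. The thymocyte markers moved the same way, with 8 of the 12 tested called lower in MHCIIhi, and so did 2 of 6 endothelium markers, Pecam1 and Cdh5, and 2 of 6 cTEC markers, Ctsl at -2.47 and Cxcl12 at -2.92, with Enpep called higher. Of the 6 fibroblast and pericyte markers, Pdgfra, Col3a1 and Acta2 were called lower, Acta2 of smooth muscle at -2.59, and Pdgfrb and Col1a1 higher. Of the 7 dendritic cell and macrophage markers 4 were called higher, the direction of Dll4. Among the mTEC markers Aire, Cd80 and H2-Ab1 were called higher as well, at 3.62, 3.80 and 1.42. Krt5 and Krt14 were called lower, at -2.73 and -2.16, the direction of the 7 lower Notch genes. The part of these cells in the values of the Notch genes was not tested.

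MHCII within Tspan8pos mTECs gave 1 gene called higher, Dll4, where 4.59% of all tested genes were, and 1 called lower, Jag2, where 2.62% were. The median log2 fold change of the 10 genes was -0.12, beside 0.01 over all genes tested. Of the 12 thymocyte markers tested none was called here by edgeR, and the sums were 96.0 and 149 CPM in Tspan8posMHCIIhi and 149 and 270.1 CPM in Tspan8posMHCIIlo. Pecam1 and Cdh5 were called lower in MHCIIhi here as well. Of the fibroblast and pericyte markers, Col3a1 was called lower, at -1.62, and Rgs5 higher, at 2.19. Lyz2 of the dendritic cell and macrophage list was called higher, at 1.84, like Rgs5 in the direction of Dll4. Among the mTEC markers Aire, Cd80 and H2-Ab1 were called higher too, at 4.09, 1.83 and 2.33, and none was called lower by edgeR. The part of these cells in the Dll4 and Jag2 values was not tested.

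**Figure D3:**
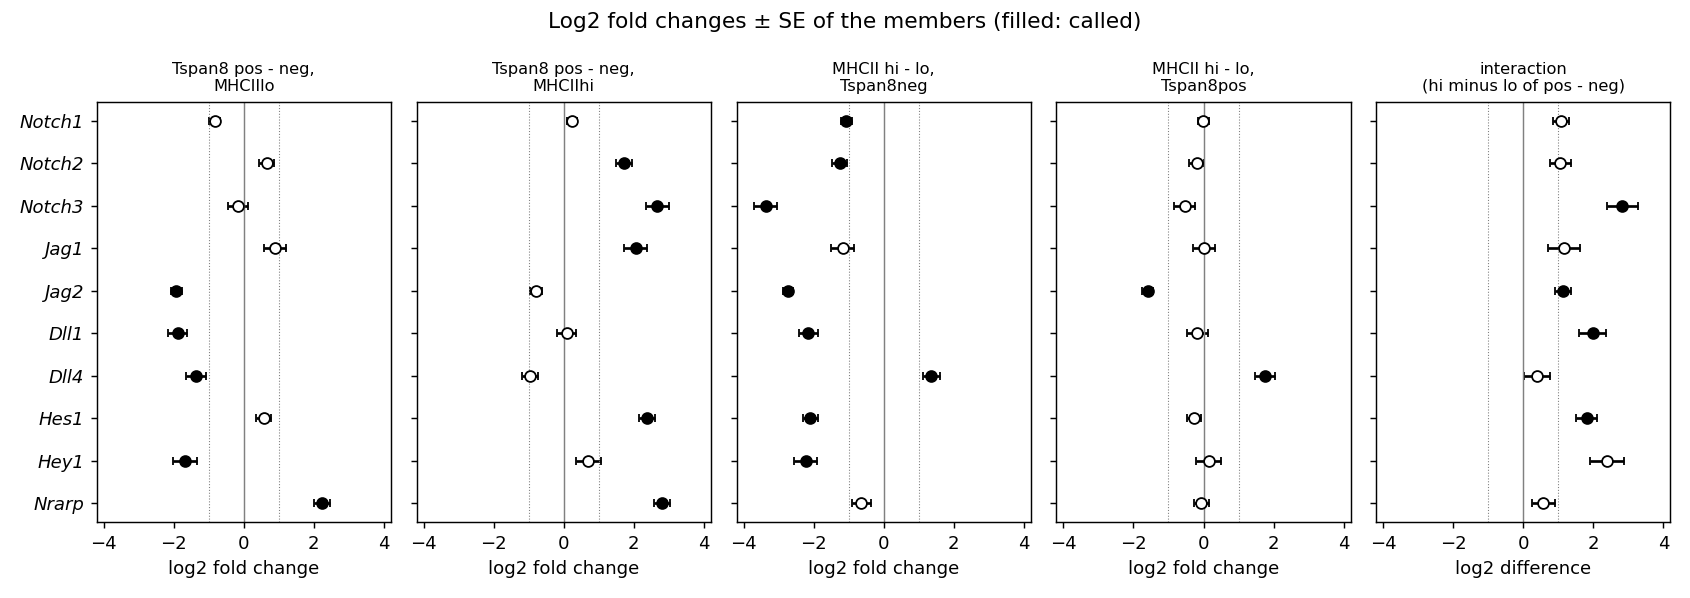
Log2 fold changes of the 10 genes with their standard errors in the 4 single-marker comparisons and the interaction, on a shared axis, with the fold limit dotted and called values filled. The Tspan8 difference in MHCIIhi mTECs has 5 filled points to the right of 0, and the MHCII difference in Tspan8neg mTECs has 7 to the left and Dll4 to the right.

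Whether the Tspan8 difference itself changed with MHCII was tested by the interaction, the Tspan8 difference among MHCIIhi minus that among MHCIIlo mTECs. It was called above 0 for 4 of the 10 genes, where 2.24% of all tested genes were, and below 0 for none, where 2.36% were. For Notch3 it was 2.83 (SE 0.44, edgeR adjusted p = 0.00262), for Dll1 1.98 (SE 0.39, edgeR adjusted p = 0.0091), for Hes1 1.81 (SE 0.30, edgeR adjusted p = 0.00378) and for Jag2 1.13 (SE 0.22, edgeR adjusted p = 0.00826). With single libraries left out the Notch3 value ran from 2.10 to 3.32. The fitted value was above 0 for all 10 genes and had an unadjusted p under 0.05 for 8, with none below 0 by edgeR or by DESeq2, which called 5. The number of calls ran from 0 to 7 when single libraries were left out. It was 0 without either Tspan8negMHCIIhi library, without replicate 1 of Tspan8posMHCIIhi or without either Tspan8posMHCIIlo library, where 7 to 9 genes still had an unadjusted p under 0.05, and 1 without replicate 2 of Tspan8posMHCIIhi. Markers of other cell types were called above 0 in the same test. Of the fibroblast and pericyte list they were Acta2 at 2.68 and Rgs5 at 2.37. Of the cTEC list they were Ctsl at 1.78 and Cxcl12 at 2.15. Among the mTEC markers, Krt5 and Krt14 were called above 0 at 2.83 and 2.29, and Cd80 below 0 at -1.97. The part of other cell types in the interaction was not tested. The interaction uses the same 8 libraries as the single comparisons and is no separate evidence for them.

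The 2 libraries of Tspan8negMHCIIlo differed from each other by more than 2-fold for 2 of the 10 genes. Notch3 was 2.29-fold higher in replicate 2, and Jag1 2.43-fold higher in replicate 1, with Notch2 1.68-fold higher there. The thymocyte markers, summed, were 2.86-fold higher in replicate 2. Rag1, Lck and Dntt, which make and signal through the T cell receptor or extend its joints, were at 60.1, 104 and 80.9 CPM in replicate 1 and at 181, 273 and 244 in replicate 2. Dtx1, a regulator of Notch used by lymphocytes, moved with them from 9.83 to 29.7 CPM. The endothelium markers, summed, ran the other way, from 195 CPM in replicate 1 to 115 in replicate 2. The part of either cell type in the Notch3, Jag1 and Notch2 values was not tested. Outside Tspan8negMHCIIlo the replicates of a subset were within 1.83-fold for each gene except Hey1 in Tspan8posMHCIIhi, at 2.06-fold.

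Among other genes of the pathway, 46 were listed by role, 45 were in the table, Hes5 being the one not analysed here, and 44 were tested, Hes3 being left out for low counts. Of the 44, Tspan8pos against Tspan8neg called 6 higher and 7 lower among MHCIIlo mTECs, where 12.1% and 9.34% of all tested genes were, and 5 higher and 5 lower among MHCIIhi mTECs, where 11% and 7.45% were. MHCIIhi against MHCIIlo called 4 higher and 7 lower in Tspan8neg mTECs, beside 13.1% and 9.67% of all tested genes, and 1 higher and 3 lower in Tspan8pos mTECs, beside 4.59% and 2.62%. The interaction was called above 0 for 3, Maml2, Maml3 and Heyl, beside 2.24% of all tested genes, and below 0 for none by edgeR.

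Psen2 and Aph1b, subunits of gamma-secretase, were higher with Tspan8 by 1.29 and 1.78 among MHCIIlo mTECs, and the interaction was called for neither. Reads of Aph1b and Aph1c, near-identical copies, cannot be split with certainty.

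The ligases Mib1, Mib2, Neurl1a and Neurl1b tag ligands for the uptake that pulls on the receptor. Mib1 was called in no comparison and lay between 57.4 and 80.1 CPM. Neurl1a was higher in Tspan8pos mTECs by 1.08 in the MHCIIlo and 1.17 in the MHCIIhi subsets and lower in MHCIIhi mTECs, with changes of -1.82 in Tspan8neg and -1.73 in Tspan8pos mTECs. Neurl1b was higher in Tspan8posMHCIIhi than in Tspan8negMHCIIhi by 1.42, and Mib2 changed by -1.11 with MHCII in Tspan8neg mTECs.

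Of the other receptor and ligand genes, Notch4, an endothelial receptor, was at 2.36 to 14.8 CPM and higher in MHCIIhi than MHCIIlo mTECs within Tspan8neg by 2.16. Pecam1 and Cdh5 of the endothelium list were called lower in that comparison, at -2.21 and -2.52. The part of endothelium in the Notch4 values was not tested. Dll3 and Dlk1, which act on Notch from within the same cell or inhibit it, changed by -3.93 and -2.55 with Tspan8 among MHCIIlo and by -1.96 and -1.97 among MHCIIhi mTECs, with Dll3 at 0 and 0.68 CPM in the Tspan8posMHCIIlo libraries. Dlk1 stood at 39.9 and 43.6 CPM in Tspan8negMHCIIhi and at 1.10 to 17.2 CPM elsewhere, and was higher in MHCIIhi mTECs by 1.38 in Tspan8neg and 1.96 in Tspan8pos, the direction of Dll4. Dlk2 was called in none of the 4 comparisons.

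Sugars on the receptor set which ligand it prefers. Of the 5 enzymes that add them, Mfng changed by -2.12 and -1.34 with Tspan8 in the MHCIIlo and MHCIIhi subsets. Poglut1 changed by -1.09 with Tspan8 among MHCIIhi mTECs and by 1.40 with MHCII in Tspan8neg mTECs. Pofut1, Lfng and Rfng were called in none of the 4.

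In the nuclear complex, Rbpj itself, the factor through which all Notch receptors signal, was called in none of the 4 comparisons and lay between 80.1 and 169 CPM. Its relative Rbpjl, known from the pancreas, had 11.5 and 9.01 CPM in Tspan8posMHCIIlo and 0.21 to 2.36 CPM elsewhere, higher by 2.39 (SE 0.56, edgeR adjusted p = 0.00548) than in Tspan8negMHCIIlo, and changed by -3.79 with MHCII in Tspan8pos mTECs. The cofactors Maml2 and Maml3 changed by -2.01 and -1.48 with MHCII in Tspan8neg mTECs, Maml3 was higher by 1.48 with Tspan8 among MHCIIhi mTECs, and Maml2 changed by -1.72 with Tspan8 among MHCIIlo mTECs.

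Of the other Hes and Hey genes, Hes6, which opposes Hes1, had 133 and 145 CPM in Tspan8negMHCIIlo, 103 and 95.6 in Tspan8negMHCIIhi and 30.1 to 39.6 in the Tspan8pos libraries. It changed by -2.01 (SE 0.17, edgeR adjusted p = 4.35e-06) and -1.51 (SE 0.16, edgeR adjusted p = 2.93e-05) with Tspan8 in the MHCIIlo and MHCIIhi subsets. Heyl was higher in Tspan8posMHCIIhi than in Tspan8negMHCIIhi mTECs by 1.42, and Hey2 changed by -2.31 with MHCII in Tspan8neg mTECs. Hes2 had no counts in both Tspan8negMHCIIlo libraries and 5.18 CPM or less in the rest. Among the 9 receptor regulators, Dtx1 and Dtx3 changed by -2.69 and -1.07 with Tspan8 among MHCIIlo mTECs, Dtx2 by 1.33 and Dtx4 by -2.12 with MHCII in Tspan8neg mTECs, and Numbl by -2.14 and -1.87 with MHCII in Tspan8neg and Tspan8pos mTECs.

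**Figure D4:**
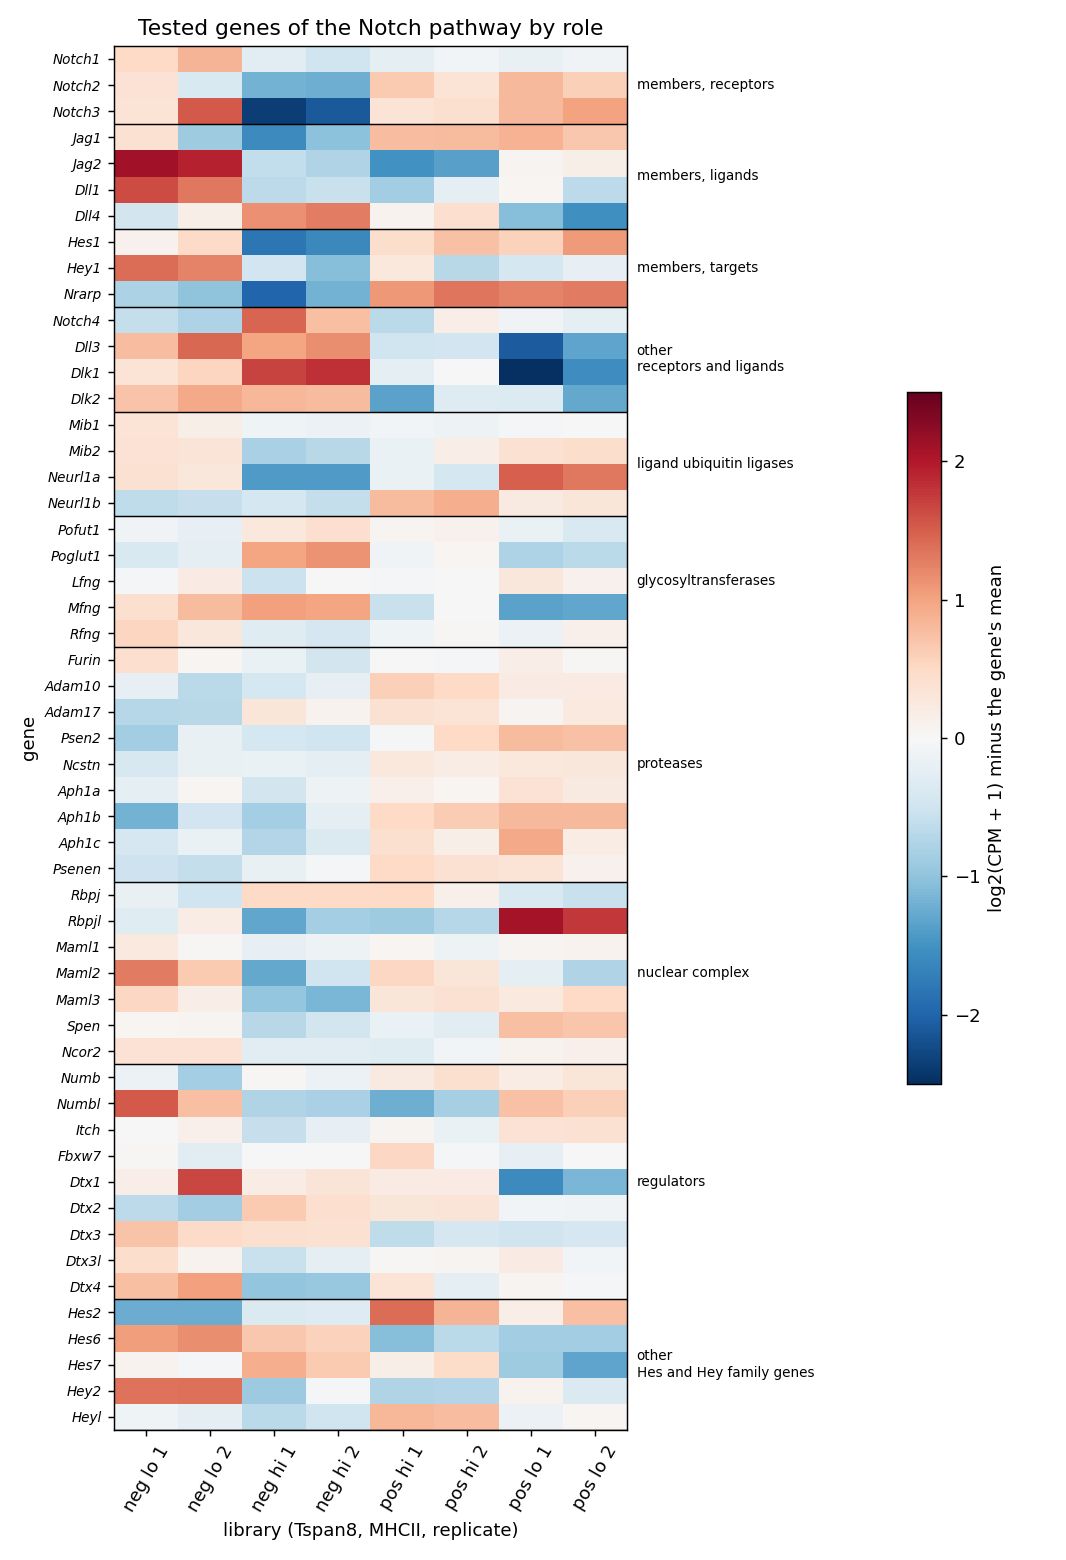
Levels of the 10 genes and of other pathway genes tested, grouped by role, as log2(CPM + 1) minus the gene's mean over the 8 libraries (red above, blue below the mean). Hes6 is blue in the 4 Tspan8pos libraries and red in the 4 Tspan8neg libraries, and Notch3 and Hes1 are darkest blue in Tspan8negMHCIIhi.

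Over the 8 libraries, the members fell into sets of like pattern, given here as a description, since the points share libraries and depth. Notch2, Jag1, Hes1 and Nrarp had Pearson correlations of log2 CPM from 0.81 to 0.96 with one another, and Notch3 with Hes1 had 0.95. Notch1, Jag2, Dll1 and Hey1 had 0.79 to 0.91 with one another. Dll4 was at or below -0.18 with each of the other 9, lowest with Notch2 at -0.82. Dll4 thus had no gene of like pattern among the 10. The ligand gene Dlk1, outside the 10, was not part of these correlations. Its subset means were 16.0 CPM in Tspan8negMHCIIlo, 41.8 in Tspan8negMHCIIhi, 10.7 in Tspan8posMHCIIhi and 2.19 in Tspan8posMHCIIlo. Those of Dll4 were 20.9, 54.0, 27.6 and 8.84 CPM in the same order.

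**Figure D5:**
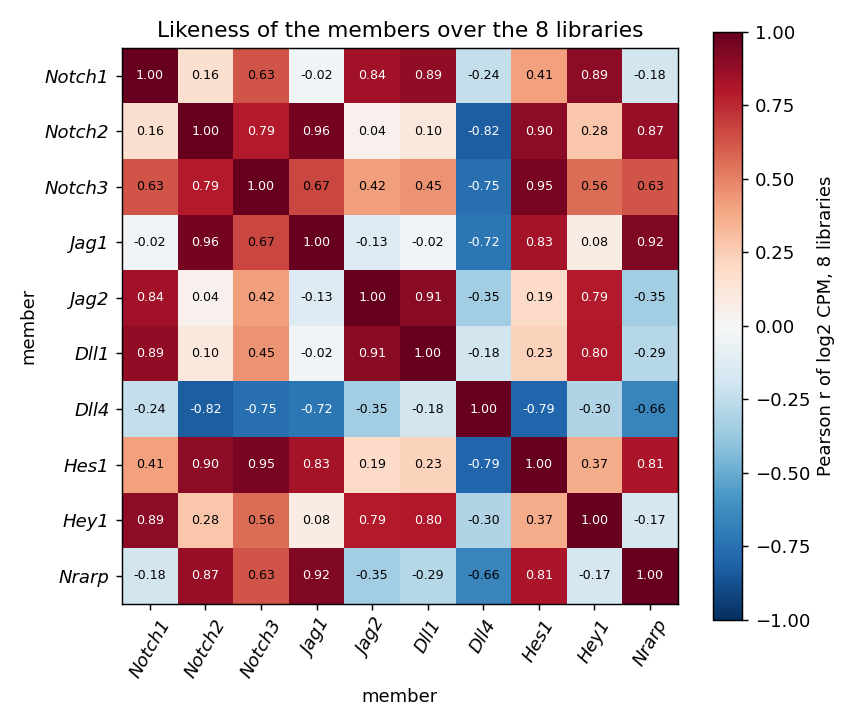
Pearson correlation of log2 CPM between the 10 genes over the 8 libraries. Notch2, Jag1, Hes1 and Nrarp are red with each other, as are Notch1, Jag2, Dll1 and Hey1, and the row of Dll4 holds negative values apart from itself.

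Among 11024 other genes whose mean reached 10 CPM, those most like each member over the 8 libraries had correlations from 0.976 to 0.997. They were Tnfrsf1a and Tpm1 for Notch2, Fkbp4 and Zfp36l2 for Notch1, Aak1 for Notch3, Fbxl19 and Btg1 for Jag1, Samd1 and Ltbp4 for Jag2, Mdga1 and Disp1 for Dll1, Ostc and Tdh for Dll4, Idh2 and Ccdc17 for Hes1, Camk2g and Unc119 for Hey1, and Slc44a4 and Spag1 for Nrarp. Slc44a4, a choline transporter, had subset means of 9.96 CPM in Tspan8negMHCIIlo, 4.88 in Tspan8negMHCIIhi, 58.5 in Tspan8posMHCIIhi and 66.0 in Tspan8posMHCIIlo, beside 16.1, 10, 72.6 and 75.7 CPM for Nrarp. Ltbp4, which binds TGF-beta in the matrix, had 125, 16.0, 7.85 and 33.0 CPM in the same order, beside 175, 26.3, 15.2 and 45.8 CPM for Jag2.

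Annotated genes overlap 6 of the 10 on either strand with counts in the table, and each of these had at most 7.90 CPM in any library, the highest being Gm14207 at Dll4. For Jag1, Hes1 and Hey1 the annotation holds no overlap, and for Jag2 a microRNA that is not in the table. Since the sources differ on whether the libraries kept strand, reads of a gene and of an antisense partner cannot be told apart.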

How the data were processed

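The authors sequenced sorted mTEC RNA, quantified reads against the Gencode vM10 transcriptome (mm10) with Salmon 1.8.0 and tested with DESeq2 1.30.0, per the labels and the methods. They deposited 1 table of estimated counts per gene, given as whole numbers, for 25466 genes with a count in at least 2 libraries. How transcripts were summed and rounded is not given in the sources used here. The labels name a stranded mRNA kit and the methods pre-amplified, tagmented cDNA. The latter carries PCR copies without molecular identifiers, so counts cover more than independent molecules.

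Symbols came from Gencode annotation by gene ID (25336 matched, 130 did not), and positions and transcript lengths from vM21 on GRCm38. Counts were normalized by TMM and tested in 1 fit of all 8 libraries with edgeR 4.0.16 (R 4.3.3, quasi-likelihood, filterByExpr, Benjamini-Hochberg over 17006 genes). Groups came from the labels. Calls needed an adjusted p below 0.01 and a change of 1 or more on the log2 scale in either direction. SE was taken from the log2 change and its F statistic. Precision is set by totals of 1941518 to 7783841, where 3 counts equal 0.385 to 1.55 CPM. With 2 libraries per subset an exact permutation test cannot reach 0.05, so p-values rest on the spread shared by all 8. Alternatives were DESeq2 1.42.0, its size factors in edgeR, no filter, 10 counts in 4 libraries, 4 libraries per comparison, a replicate block, other thresholds and leaving out each library.

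The members and gene lists were chosen with earlier results of these data known. All members are described. Other pathway genes are named where called in a single-marker comparison or where their role has 4 genes or fewer, and the 2 genes of most similar pattern for each member. Rbpj, Pofut1, Lfng and Rfng are named besides, and Hes6, Rbpjl, Slc44a4 and Ltbp4 given more room, chosen after values were seen. Some genes that meet this rule are not reported here. Upstream windows came from RefSeq. Replicates differed by more than sampling noise in every subset.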

Additional observations from a re-analysis of the deposited data

Results flagged for a closer look

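The Tspan8 difference depended on MHCII for 4 of the 10 genes by the interaction test of edgeR. The difference among MHCIIhi minus that among MHCIIlo mTECs was 2.83 for Notch3, 1.13 for Jag2, 1.98 for Dll1 and 1.81 for Hes1 on the log2 scale. Notch3 and Hes1 were higher in Tspan8pos mTECs among the MHCIIhi subsets, by 2.67 and 2.38, with -0.15 and 0.57 among the MHCIIlo subsets. Jag2 and Dll1 were lower in Tspan8pos mTECs among the MHCIIlo subsets, at -1.92 and -1.89, with -0.79 and 0.09 among the MHCIIhi subsets. Without replicate 2 of Tspan8negMHCIIlo, the library with the most thymocyte marker counts, the interaction of all 4 was called again. Each of the 4 lost its call when any 1 of the 6 libraries of the other subsets was left out.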

How the results depend on the processing

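Of the fold changes of the 10 genes recomputed under the alternatives, 695 kept their direction and their side of the limits, 31 gained a call, 45 lost one and 19 changed sign. The number of genes called for the interaction, 4, became 2 with DESeq2 size factors in edgeR and 7 at an adjusted p under 0.05. With single libraries left out, the calls ran from 0 to 7 for the interaction, 2 to 8 for Tspan8 among MHCIIlo mTECs, 5 to 8 for MHCII in Tspan8neg mTECs and 1 to 2 for MHCII in Tspan8pos mTECs. Sign changes concerned values that were not called. The Notch1 difference between the Tspan8pos subsets was 0.017 with DESeq2, 0.017 with its size factors, 0.00094 without a filter and 0.023 with 4 libraries, and ran from -0.079 to 0.093 with single libraries left out. In that comparison the same ranges were -0.097 to 0.12 for Jag1, -0.60 to 0.16 for Dll1, -0.44 to 0.018 for Hes1, -0.43 to 0.58 for Hey1 and -0.20 to 0.085 for Nrarp. For Tspan8 the range was -0.63 to 0.58 for Notch3 among MHCIIlo mTECs and -0.28 to 0.41 for Dll1 among MHCIIhi mTECs. The cause was not tested. Same-numbered libraries of different subsets shared little deviation (correlations 0.0040 to 0.092), so the numbers were not taken as pairs. With the replicate block 7 genes were called for the interaction, and 1236 in place of 783 over all genes. The depth limits Dll1, Dll4, Hey1 and Nrarp most, the shallowest library holding as few as 18 counts for one of the 10 genes.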
